A study of Homo sapiens with 6 samples.

Results

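The tumour necrosis factor (TNF) superfamily comprises ligands, mostly trimeric membrane proteins that can be shed, and receptors that bind them through cysteine-rich domains. The genes were taken from the deposited expression table by name: protein-coding genes whose symbols start with TNFSF or TNFRSF and a digit, together with TNF, LTA, LTB, LTBR, FAS, FASLG, CD40, CD40LG, CD27, CD70, EDAR and EDA2R. This gave 45 of the 58735 genes in the table, 18 of them ligands and 27 receptors. The rule uses no expression values, though it was set with earlier results of these data known.

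The study holds 6 RNA sequencing libraries of SW480, an established cell line from a human colorectal adenocarcinoma, grown in L-15 medium with 10% serum. The labels put 3 libraries under DDX39B overexpression and 3 under wild type (titled as controls), and no further allele, agent or time is given. How DDX39B was overexpressed, whether a single clone or a pool was used, and whether the libraries came from separate cultures could not be read from the labels, so the p-values measure the spread between these libraries, which may be technical. The deposited unit was FPKM, which divides the reads of a gene by its length and by the size of the library. Multiplying by length gave back whole reads, 16963075 to 17463697 in sum per library. The divisor for library size was 1.04 to 1.05 times that sum under the overexpression label and 0.958 to 0.995 times under the other. This difference in scaling follows the groups and bears on folds near 1.

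DDX39B, an RNA helicase of splicing and mRNA export, went against the labels. It measured 15.02, 13.9 and 14.0 FPKM where overexpression was the label and 39.3, 34.6 and 41.9 FPKM where control was (limma log2 difference -1.37, SE 0.079, adjusted p = 6.93e-06). Such values do not tell transcripts of a transgene from those of the endogenous gene. The libraries are called OE-labelled and Con-labelled below, and each direction follows the labels as given. Exchanged labels, which would turn every direction, and groups made of different cells cannot be told apart from an effect of DDX39B in this design. Of the 13972 genes averaging 1 FPKM or more, 76.8% met an adjusted p under 0.05, 37.5% as higher and 39.3% as lower in the OE-labelled libraries, and 80.1% had groups that did not overlap. Pearson correlations across genes were 0.974 to 0.991 within groups and 0.676 to 0.685 between them (genes are not independent replicates). Colon epithelial markers stood apart as well: all 7 tested of 9 were higher, summing to 1972 to 1996 FPKM against 358 to 430 FPKM. Of the 7, KRT19, CDH1, VIL1 and CDX2 passed the filter through the OE-labelled libraries alone, which fixes their direction. CDX2 had 0 reads in the Con-labelled libraries and CDX1 had 0 reads in all 6, while the keratins KRT8 and KRT18 were present in both groups. KRT20, the ninth marker, went the other way below the filter, with 6 reads against 80 (voom adjusted p = 1.27e-03). It entered voom through the Con-labelled libraries alone, which fixes its direction. Endothelial markers summed to 1.04 to 1.43 against 35.9 to 50.5 FPKM, ESAM making up nearly all of the Con-labelled sums, whereas VWF was higher, at 0.586 against 0.046 FPKM (voom adjusted p = 1.36e-05). Fibroblast markers summed to 1.54 to 1.67 against 4.29 to 8.20 FPKM, COL1A1 making up most of the sums (1.21 against 4.85 FPKM). LUM went the other way, with 29 reads against 1, and COL1A2 had 3 reads in each group. The part that these differences between the libraries play in the results below was not tested.

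Receptors of the superfamily fall into 3 kinds. Receptors with a cytoplasmic death domain, such as FAS and the TRAIL receptors, can assemble caspase-8 complexes or, like the main TNF receptor, signal to NF-kB through the adaptor TRADD and the kinase RIPK1. TRAF-binding receptors lack the death domain and recruit TRAF proteins to activate NF-kB and JNK, and decoy receptors bind ligand without passing on a full signal. Intestinal epithelial tumour cells are known to carry TRAIL, FAS and TNF receptors, whereas many of the ligands are made mainly by lymphocytes and myeloid cells.

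Most superfamily members that were expressed enough to be tested differed between the groups, as did most genes. Of the 45 members, 21 had a mean of at least 1 FPKM. Of these, 12 reached it in both groups and 9 in the OE-labelled libraries alone, which fixes the direction of the 9. Among the 21, 13 were higher and 5 lower (limma), and 3 did not pass, beside a background of 76.8% of all tested genes. Groups did not overlap for 19 of the 21, beside 80.1% of all tested genes, and nothing particular to the superfamily is read from these counts. Their median log2 difference was 0.61, against -0.03 over all tested genes, and the members admitted through a single group weigh on that value. Of the 24 members below the filter, 5 had 0 reads in all 6 libraries: TNFRSF13B, TNFRSF6B, CD40LG, TNFSF11 and the read-through gene TNFSF12-TNFSF13.

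**Figure D1:**
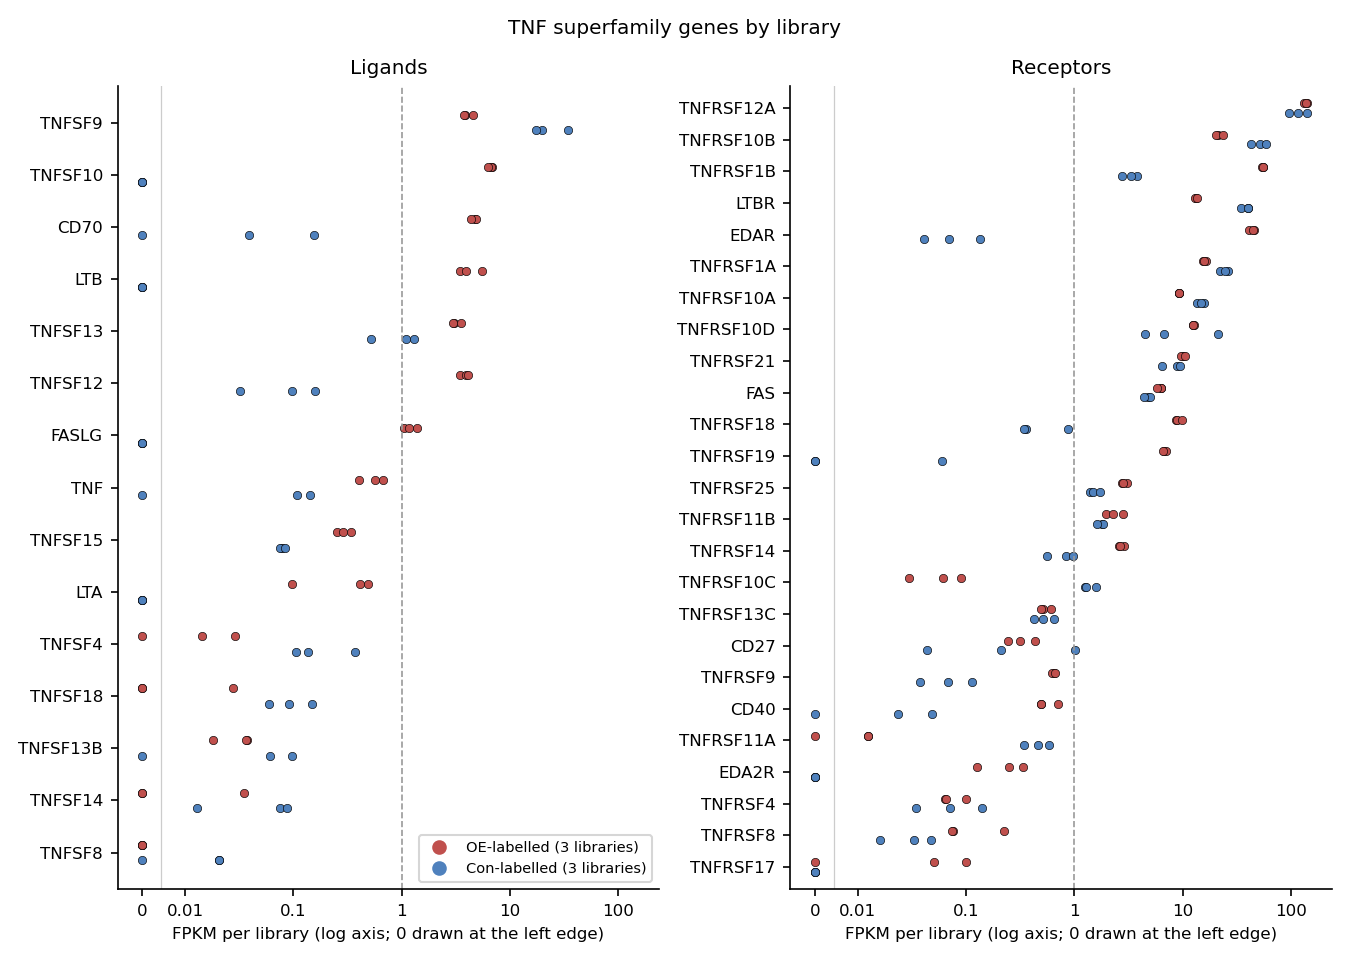
FPKM of the 40 members with any read, for each of the 6 libraries, on a log axis with values of 0 drawn at the left edge; the dashed line marks 1 FPKM. TNFRSF12A lies between 96.9 and 142 FPKM in all 6, whereas EDAR, TNFSF10, LTB and TNFRSF19 are at or near 0 in the Con-labelled libraries only.

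The tested ligands were few. Of 18 ligands, 6 were expressed enough to be tested, and 5 of them (TNFSF10, CD70, LTB, TNFSF12 and TNFSF13) were the higher ones, while TNFSF9 was lower. All 5 higher ligands had a mean under 1 FPKM in the Con-labelled libraries and passed the filter through the other group, which fixes their direction, and 37.5% of all tested genes were higher. In bulk RNA, more cells that express a gene and more RNA per cell cannot be told apart.

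TNFSF10 encodes TRAIL, the ligand of the death receptors TNFRSF10A and TNFRSF10B. It measured 6.89, 6.68 and 6.21 FPKM in the OE-labelled libraries (422, 419 and 385 reads) and had 0 reads in all 3 Con-labelled ones. It was at least 381-fold higher, taking 3 reads in the whole group as the floor (limma log2 difference on the FPKM + 1 scale 2.92, SE 0.070, adjusted p = 1.41e-07). TNFSF10 (ENSG00000121858) lies on chromosome 3 from 172505508 to 172523507, minus strand, in the GRCh38 coordinates of the table.

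LTB encodes lymphotoxin beta, which anchors lymphotoxin alpha to the membrane as a ligand of LTBR. It measured 3.47, 3.89 and 5.51 FPKM in the OE-labelled libraries, against 0 reads in each of the others (at least 110-fold higher, log2 difference 2.38, SE 0.14, limma adjusted p = 8.68e-06). Its neighbours were scarcer. LTA, lymphotoxin alpha, had 3, 13 and 15 reads against 0, 0 and 0, at least 9.59-fold more per length. TNF itself had 12, 17 and 20 reads against 0, 4 and 3, 6.58-fold more (95% counting interval 2.97 to 17.2). These 3 genes lie side by side on chromosome 6, from 31572054 to 31582522, and LTA begins 29606 bases beyond the end of DDX39B. All 3 thus had more reads in the group in which the nearby DDX39B was lower, beside 37.5% of all tested genes that were higher there. Whether position plays a part was not tested.

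CD70, the ligand of the lymphocyte receptor CD27, measured 4.78, 4.81 and 4.35 FPKM against 0, 0.155 and 0.039 FPKM. The difference was 71.9-fold (95% counting interval 30.5 to 223) with a log2 difference of 2.41 (SE 0.087, limma adjusted p = 8.22e-07). TNFSF12 encodes TWEAK, the ligand of TNFRSF12A, and measured 3.47, 3.89 and 4.11 FPKM against 0.098, 0.158 and 0.032 FPKM, 39.9-fold higher (log2 difference 2.14, SE 0.089, limma adjusted p = 1.52e-06). TNFSF13, which encodes APRIL and follows TNFSF12 on chromosome 17, measured 3.01, 3.53 and 3.00 FPKM against 1.11, 1.30 and 0.525 FPKM. It was 3.25-fold higher (limma adjusted p = 7.21e-04), and none of the 3 Con-labelled values reached the lowest of the others. TNFSF12 and TNFSF13 overlap the read-through gene of both, which is listed at 0 in every library, so how reads were parted among the 3 is not known.

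TNFSF9, the ligand of the costimulatory receptor TNFRSF9, was the exception among the tested ligands. It measured 3.85, 3.72 and 4.54 FPKM in the OE-labelled and 19.8, 17.5 and 34.3 FPKM in the Con-labelled libraries. The third Con-labelled library was the highest, and the groups did not overlap. The level was 5.92-fold lower under the overexpression label (log2 difference -2.25, SE 0.24, limma adjusted p = 1.33e-04). TNFSF9 took 92.3% ± 4.3 of the summed ligand FPKM in the Con-labelled libraries and 13.9% ± 1.0 in the others (SD, n = 3 each). The sums themselves overlapped, at 27.7 to 30.4 FPKM and 19.8 to 35.4 FPKM. TNFSF9 and CD70, which went opposite ways, are neighbours on chromosome 19, with 47255 bases between them.

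Below the filter, FASLG, the ligand of FAS that cytotoxic lymphocytes use, had 46, 36 and 39 reads under the overexpression label (1.38, 1.06 and 1.16 FPKM) and 0 reads in the Con-labelled libraries. It was at least 37.6-fold higher. In limma's voom on the reads worked out, which tested 29 members and called 77.8% of all genes (44.0% higher and 33.8% lower), FASLG, TNF and TNFSF15 were higher. FASLG and TNF reached the 10 reads that voom required in the OE-labelled libraries alone, which fixes their direction. TNFSF15, or TL1A, had 35, 48 and 40 against 10, 10 and 11 reads (3.69-fold, voom adjusted p = 1.64e-04), and the adjusted p of FASLG was 7.17e-07 and that of TNF 3.68e-03. TNFSF4, the OX40 ligand, went the other way with 2, 0 and 1 reads against 24, 7 and 9, 14.3-fold less (95% counting interval 4.56 to 72.3). TNFSF18 had 1 read against 10, TNFSF14 3 against 14, TNFSF13B 5 against 8 and TNFSF8 0 against 2, and none of these was tested.

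Leukocyte markers gave little signal beside these ligands. The 12 markers summed to 1.59 to 2.59 FPKM in the OE-labelled and 1.13 to 1.34 FPKM in the Con-labelled libraries. CD3D, CD2 and MS4A1 had 0 reads in all 6 libraries, and PTPRC, the pan-leukocyte gene, had 0 reads in the OE-labelled libraries and 5 in the others. Reads in the OE-labelled libraries alone were counted for LYZ (48), NKG7 (30), GNLY (19) and CD3E (18), whereas CSF1R had 7 against 46. None of the 12 reached a mean of 1 FPKM.

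RefSeq promoter windows (250 bases before to 50 after the start, GRCh38.p14) were at hand for 29 of the 45 members. The promoters of 4 genes at the ends of the contrast are shown, 2 ligands with 0 reads under the control label, the ligand that was lower and the receptor TNFRSF1B described next. Capitals mark matches, on either strand, to the NF-kB consensus or to the TATA box TATAAA, and the 2 motifs do not overlap in these windows.
LTB, chr6:31582376-31582675, minus strand: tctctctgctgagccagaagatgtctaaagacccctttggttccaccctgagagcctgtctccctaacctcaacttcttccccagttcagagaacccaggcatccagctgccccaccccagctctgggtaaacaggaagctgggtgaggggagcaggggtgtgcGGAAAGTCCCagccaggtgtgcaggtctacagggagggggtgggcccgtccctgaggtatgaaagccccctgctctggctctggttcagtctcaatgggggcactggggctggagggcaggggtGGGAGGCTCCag
TNFSF10, chr3:172523381-172523680, minus strand: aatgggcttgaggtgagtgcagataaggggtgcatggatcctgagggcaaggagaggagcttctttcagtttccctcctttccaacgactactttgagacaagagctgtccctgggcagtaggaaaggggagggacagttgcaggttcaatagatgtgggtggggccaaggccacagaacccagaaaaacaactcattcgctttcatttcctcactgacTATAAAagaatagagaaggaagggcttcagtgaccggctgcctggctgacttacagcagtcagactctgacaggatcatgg
TNFSF9, chr19:6530776-6531075, plus strand: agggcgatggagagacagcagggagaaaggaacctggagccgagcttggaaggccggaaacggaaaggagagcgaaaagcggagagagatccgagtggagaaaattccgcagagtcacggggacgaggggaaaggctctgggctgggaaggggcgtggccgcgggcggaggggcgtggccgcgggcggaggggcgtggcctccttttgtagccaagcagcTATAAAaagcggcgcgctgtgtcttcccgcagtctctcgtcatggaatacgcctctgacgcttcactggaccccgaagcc
TNFRSF1B, chr1:12166741-12167040, plus strand: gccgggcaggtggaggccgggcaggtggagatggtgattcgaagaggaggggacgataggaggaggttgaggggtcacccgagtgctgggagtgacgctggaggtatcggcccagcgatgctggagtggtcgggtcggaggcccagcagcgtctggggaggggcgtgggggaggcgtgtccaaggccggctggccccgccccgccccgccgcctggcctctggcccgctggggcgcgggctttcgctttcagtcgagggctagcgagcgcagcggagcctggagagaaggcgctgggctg

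The LTB window held an NF-kB match at bases -86 to -77 from the start and another at 39 to 48. RefSeq starts lay 97 (LTB), 77 (TNFSF10), 27 (TNFSF9) and -12 (TNFRSF1B) bases downstream of the gene starts used for the FPKM. Both LTB matches thus fell inside the gene span that was measured. TNFSF10 and TNFSF9, which differed in opposite directions, both held a TATAAA box at nearly the same place, at -31 to -26 and at -30 to -25. The window of TNFRSF1B held neither motif and 27 CpG dinucleotides, as many as that of TNFSF9, against 3 in TNFSF10 and 2 in LTB. An NF-kB match stood in 5 of the 29 windows (LTB, TNFSF14, TNFRSF9, TNFRSF14 and TNFRSF25), or 17.2%, and in 11.3% of all 35116 windows. A TATAAA box stood in 4 (TNF, TNFSF9, TNFSF10 and TNFRSF18), or 13.8%, and in 11.5% of all windows. These matches describe the letters of the windows and no binding.

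Among death domain receptors, the receptors for TNF and TRAIL were lower under the overexpression label and the ectodysplasin receptor was far higher. All 7 members of this kind were tested, 3 higher, 3 lower and 1 not past the threshold, beside 37.5% higher and 39.3% lower of all tested genes. EDAR passed the filter through the OE-labelled libraries alone, which fixes its direction. EDAR, which acts in the development of hair, teeth and skin glands, measured 46.1, 41.1 and 44.8 FPKM against 0.069, 0.134 and 0.041 FPKM. It rested on 10426 reads against 18 and was 542-fold higher (95% counting interval 343 to 914), with a log2 difference of 5.38 (SE 0.069, limma adjusted p = 1.67e-08). This made EDAR the third most abundant member in the OE-labelled libraries. EDAR (ENSG00000135960) lies on chromosome 2 from 108894471 to 108989372, minus strand.

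Other genes of the ectodysplasin axis stood beside EDAR. Its adaptor EDARADD measured 4.17, 3.90 and 3.96 FPKM against 0 reads in the Con-labelled libraries, at least 266-fold higher (log2 difference 2.32, SE 0.070, limma adjusted p = 3.84e-07). EDARADD too passed the filter through the OE-labelled libraries alone. The ligand gene EDA, named outside the rule, stayed below the filter at 0.697, 0.743 and 0.752 FPKM against 0.026, 0.186 and 0.034 FPKM, 8.89-fold more with groups that did not overlap. EDA2R, the receptor for the other EDA isoform, had 21, 16 and 8 reads against 0, 0 and 0, at least 14.0-fold more. Each of the 4 genes thus had more reads in every OE-labelled library than in any Con-labelled one.

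The TRAIL receptors were expressed in both groups. TNFRSF10B, or DR5, measured 21.3, 20.3 and 23.6 FPKM against 51.7, 42.4 and 58.5 FPKM, 2.34-fold lower under the overexpression label (log2 difference -1.18, SE 0.12, limma adjusted p = 1.18e-04). TNFRSF10A, or DR4, measured 9.22, 9.30 and 9.22 FPKM against 15.7, 13.7 and 14.7 FPKM, 1.59-fold lower (limma adjusted p = 1.02e-04), and an antisense gene, TNFRSF10A-AS1, at 4.90 ± 0.92 against 5.67 ± 1.5 FPKM (SD, n = 3 each), overlaps it. Both groups held more DR5 than DR4 per length, at a ratio of 2.35 ± 0.19 in the OE-labelled and 3.46 ± 0.47 in the Con-labelled libraries (SD, n = 3 each). The 2 death receptors summed to 29.6 to 32.8 FPKM where their ligand TNFSF10 was present, and to 56.1 to 73.2 FPKM where it had 0 reads.

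The decoy receptors of TRAIL each gave another result. TNFRSF10C, a decoy anchored to the membrane by a lipid, had 2, 3 and 1 reads against 38, 40 and 50, a 22.9-fold lower level (95% counting interval 10.2 to 63.6, voom adjusted p = 1.72e-05). It entered voom through the Con-labelled libraries alone, which fixes its direction. TNFRSF10D, a decoy with a truncated death domain, measured 12.6, 12.8 and 12.6 FPKM against 6.66, 4.49 and 21.5 FPKM. Its groups overlapped because of the third Con-labelled library, and it did not pass (log2 difference 0.47, SE 0.48, limma adjusted p = 0.395). Without that library TNFRSF10D was higher under the overexpression label, at 1.07 (limma adjusted p = 6.32e-04), without the second Con-labelled library it stood at 0.06 (adjusted p = 0.91), and without the first at 0.30 (adjusted p = 0.659). The 4 genes lie within 23020133 to 23225126 on chromosome 8, in the order TNFRSF10B, TNFRSF10C, TNFRSF10D and TNFRSF10A, and TNFRSF10D did not share the lower call of its neighbours. The soluble decoy TNFRSF11B, or osteoprotegerin, which also binds TRAIL, measured 1.95, 2.80 and 2.30 FPKM against 1.80, 1.82 and 1.63 FPKM. Its adjusted p of 0.0497 (limma log2 difference 0.28, SE 0.11) was lost under 10 of the 17 alternative settings that tested it, without the second OE-labelled library at 0.18 and 0.139.

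TNFRSF1A and TNFRSF1B, the receptors of TNF and lymphotoxin alpha, exchanged rank between the groups. TNFRSF1A, the death domain receptor found on most cells, measured 15.4, 16.6 and 15.9 FPKM against 26.2, 22.3 and 24.6 FPKM, 1.53-fold lower (log2 difference -0.58, SE 0.070, limma adjusted p = 2.80e-04). TNFRSF1B, the TRAF-binding receptor better known from immune and endothelial cells, measured 55.1, 54.2 and 55.7 FPKM against 3.76, 3.35 and 2.76 FPKM. It was 16.7-fold higher (log2 difference 3.71, SE 0.090, limma adjusted p = 1.47e-07), on 11098 reads against 618. The ratio of TNFRSF1B to TNFRSF1A within a library was 3.58, 3.28 and 3.51 in the OE-labelled and 0.144, 0.151 and 0.112 in the Con-labelled libraries. A ratio within a library does not depend on its scaling, and these groups lay far apart. TNFRSF1B (ENSG00000028137) lies on chromosome 1 from 12167003 to 12209228, plus strand.

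**Figure D2:**
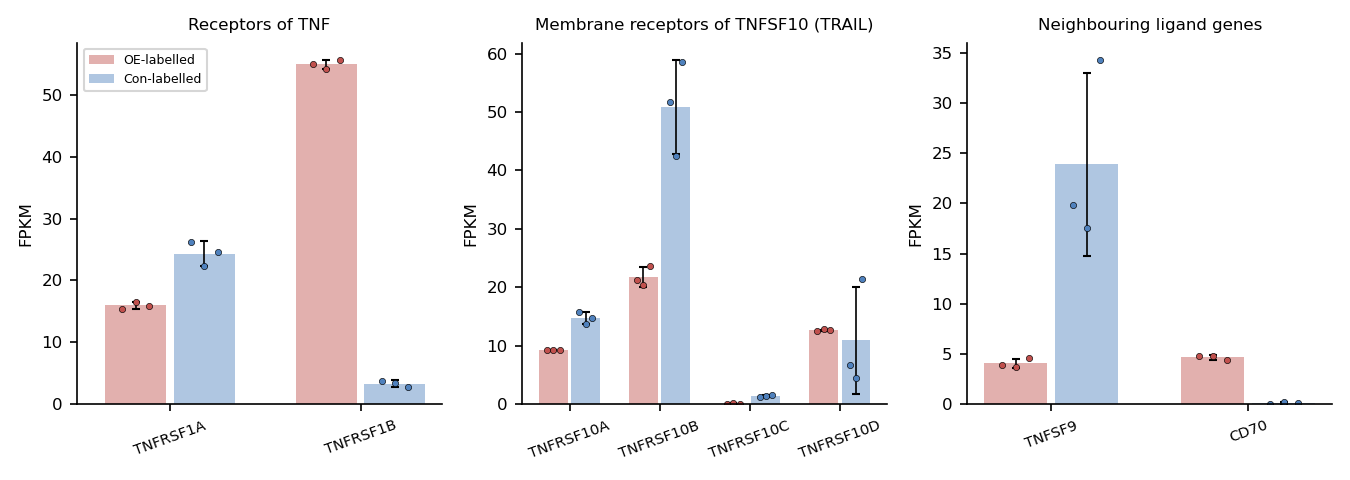
FPKM of the 2 TNF receptors, the 4 membrane receptors of TRAIL and the neighbouring ligand genes TNFSF9 and CD70; bars are means, error bars SD and points the 3 libraries of each group. TNFRSF1B stands above TNFRSF1A only in the OE-labelled libraries, and a single Con-labelled library lifts TNFRSF10D to 21.5 FPKM.

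FAS, the receptor of FASLG, differed little. It measured 6.31, 6.35 and 5.75 FPKM against 4.82, 4.97 and 4.41 FPKM, 1.30-fold higher under the overexpression label (log2 difference 0.32, SE 0.068, limma adjusted p = 4.59e-03). ACTA2, which overlaps FAS on the opposite strand, measured 2.46 ± 0.19 against 0.176 ± 0.11 FPKM (SD, n = 3 each), and whether counting used the strand is not known. TNFRSF25, or DR3, the receptor of TNFSF15, measured 2.73, 3.08 and 2.78 FPKM against 1.39, 1.48 and 1.73 FPKM, 1.87-fold higher (limma adjusted p = 4.53e-04). Its gene overlaps ESPN and PLEKHG5, which were not parted from it by any stated rule. TNFRSF21, or DR6, did not pass, at 10.1, 9.70 and 10.5 FPKM against 8.86, 6.39 and 9.46 FPKM (log2 difference 0.28, SE 0.13, limma adjusted p = 0.0904). Among 5 alternatives in which it passed, it stood at 0.38 with each library scaled to its total of reads (adjusted p = 0.0251) and at 0.38 without the third Con-labelled library (adjusted p = 0.0311). Without the second Con-labelled library it stood at 0.13 (limma adjusted p = 0.0954).

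Among the 16 TRAF-binding receptors, 6 were tested, of which 4 were higher, LTBR was lower and TNFRSF12A did not pass. Of all tested genes, 37.5% were higher and 39.3% lower. TNFRSF18, TNFRSF19 and TNFRSF14, described below, passed the filter through the OE-labelled libraries alone, which fixes their direction. TNFRSF12A, or Fn14, the receptor of TWEAK, was the most abundant member of the superfamily in both groups. It measured 140.1, 131 and 138 FPKM against 118, 96.9 and 142 FPKM, 38.9% ± 0.59 and 42.0% ± 1.2 of the summed receptor FPKM (SD, n = 3 each). The groups overlapped (log2 difference 0.21, SE 0.13, limma adjusted p = 0.179), and the gene passed as higher in 5 alternatives, among them that without the third Con-labelled library (0.35, limma adjusted p = 0.011) and voom. Without the second Con-labelled library it stood at 0.08 (limma adjusted p = 0.459). Its ligand TNFSF12 differed 39.9-fold, as given above.

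LTBR, the lymphotoxin beta receptor that feeds the non-canonical NF-kB pathway, measured 13.3, 13.1 and 13.5 FPKM against 40.5, 34.4 and 40.3 FPKM. It was 2.89-fold lower (log2 difference -1.46, SE 0.073, limma adjusted p = 3.45e-06) in the group in which its ligand LTB had reads. LTBR and TNFRSF1A, both lower, lie near each other on chromosome 12, with 32931 bases between them. SCNN1A shares 2686 bases of gene span with LTBR on the opposite strand and was higher, at 39.8 ± 0.50 against 1.99 ± 0.36 FPKM (SD, n = 3 each), opposite in direction to LTBR.

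TNFRSF19, or TROY, a receptor found in hair follicle and intestinal stem cells, measured 6.68, 7.08 and 6.59 FPKM against 0.060, 0 and 0 FPKM. It was 339-fold higher (95% counting interval 145 to 1046; limma log2 difference 2.93, SE 0.070, adjusted p = 1.38e-07), and its 5 Con-labelled reads were all in a single library. TNFRSF18, or GITR, a costimulatory receptor of regulatory T cells, measured 8.78, 8.93 and 9.77 FPKM against 0.358, 0.346 and 0.872 FPKM, 17.4-fold higher (limma adjusted p = 3.70e-06). Its neighbour TNFRSF4, or OX40, had 7 reads in each group. TNFRSF14, or HVEM, the receptor of TNFSF14 and of the inhibitory receptor BTLA, measured 2.57, 2.88 and 2.65 FPKM against 0.829, 0.562 and 0.961 FPKM, 3.44-fold higher (limma adjusted p = 9.38e-05). Its gene shares 1393 bases with TNFRSF14-AS1 on the opposite strand, which measured 2.64 ± 0.43 against 0.016 ± 0.011 FPKM (SD, n = 3 each), so reads of the 2 may not be parted.

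**Figure D3:**
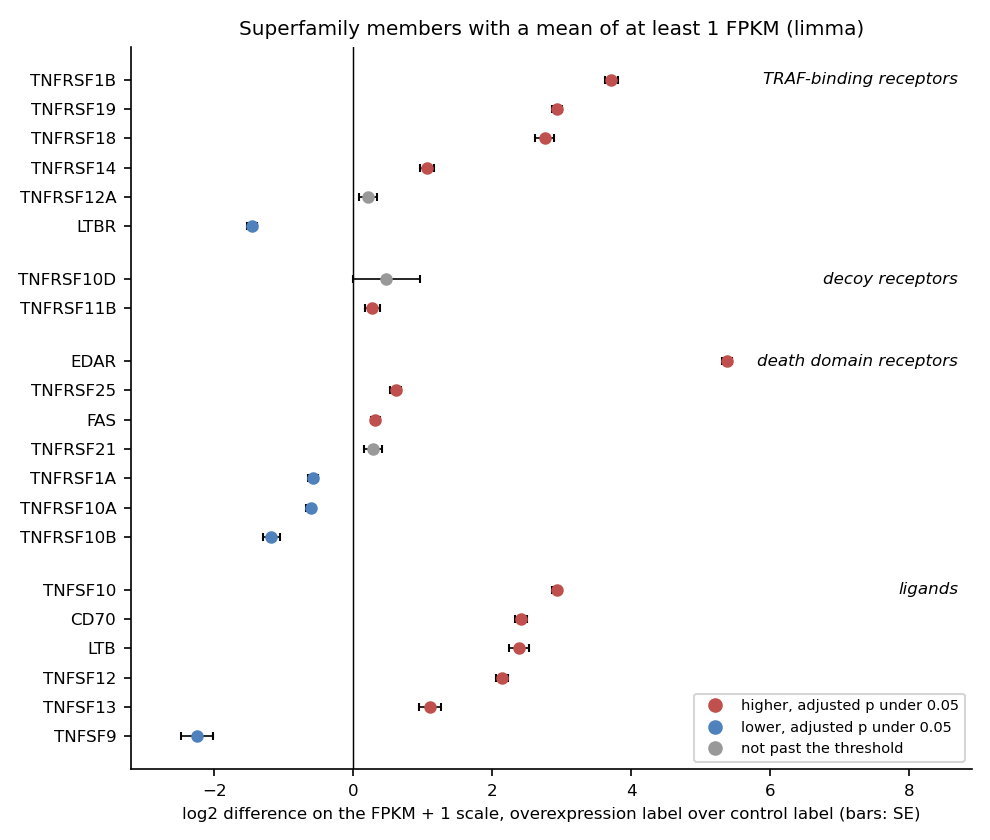
Log2 difference on the FPKM + 1 scale (overexpression label over control label, limma, bars SE) of the 21 members with a mean of at least 1 FPKM, grouped by kind. EDAR has the largest value, 5.38, and TNFSF9 the lowest, -2.25; grey points did not pass an adjusted p of 0.05.

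Of the 10 TRAF-binding receptors below the filter, voom on the reads tested 4. TNFRSF9, or 4-1BB, had 72, 71 and 75 reads against 7, 12 and 4 (8.85-fold higher, voom adjusted p = 3.18e-05), opposite in direction to its ligand TNFSF9. CD40, which B cells and many epithelia carry, had 22, 32 and 22 reads against 2, 0 and 1, 23.3-fold higher (95% counting interval 7.68 to 115, voom adjusted p = 9.30e-05). TNFRSF11A, or RANK, went the other way with 0, 2 and 2 reads against 67, 52 and 87 (55.6-fold lower, 95% counting interval 21.4 to 206, voom adjusted p = 4.00e-05), and its ligand TNFSF11 had 0 reads throughout. CD40 entered voom through the OE-labelled libraries alone and TNFRSF11A through the Con-labelled ones alone, which fixes their directions. TNFRSF13C, the BAFF receptor, had 36, 43 and 35 reads against 42, 28 and 34, a ratio of 1.02 with a 95% counting interval of 0.774 to 1.34 (voom adjusted p = 0.56). CD27 had 6, 8 and 11 reads against 1, 5 and 24, with overlapping groups, TNFRSF8 (CD30) 25 against 6, and TNFRSF17 3 against 0. TNFRSF13B and TNFRSF17, the receptors of TNFSF13, thus had 0 to 2 reads in any library, whereas the ligand was higher.

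Ligands and their receptors therefore showed several arrangements across the groups. Both sides were higher under the overexpression label for FASLG with FAS and for TNFSF15 with TNFRSF25 (the ligands by voom). The ligand was higher and the receptors lower for TNFSF10 with TNFRSF10A and TNFRSF10B and for LTB with LTBR. TNFSF9 with TNFRSF9 showed the reverse, a lower ligand and a receptor with more reads. For TNFSF12 with TNFRSF12A the ligand alone passed in the limma test on FPKM, and both were higher by voom. These pairings set the tests of single genes side by side, and no test was made of the pairs. The filters fixed the directions of FASLG, TNFSF10, LTB and TNFSF12, which entered the tests through the OE-labelled libraries alone.

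Genes that act downstream of the receptors moved in both directions. Over the 5 signalling lists, 57 of 61 genes were tested, 24 higher and 21 lower (limma), beside a background of 76.8% called, and their median log2 difference was 0.07. The TRAF proteins were all called, 4 higher and 5 lower of 9, with a median of -1.09. TRAF2, the adaptor that TNF receptors use to reach the IAP ligases, measured 17.6, 18.9 and 17.97 FPKM against 43.8, 46.3 and 42.6 FPKM (2.44-fold lower, limma adjusted p = 2.07e-06), and TRAF5 was 4.13-fold lower. TRAF1, a TRAF known as an NF-kB target, was 9.03-fold higher at 2.13 ± 0.20 against 0.235 ± 0.052 FPKM, and TRAF3IP2, an adaptor of IL-17 signalling, was 29.3-fold lower. TRAF1 passed the filter through the OE-labelled and TRAF3IP2 through the Con-labelled libraries alone, which fixes their directions.

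Of 10 tested genes of the death receptor complex, 7 were higher and 2 lower, with a median log2 difference of 0.78, beside 37.5% higher and 39.3% lower of all tested genes. EDARADD, at 0 reads in the Con-labelled libraries, is among the 7. RIPK1 was 2.81-fold higher, and FADD and CASP8, the core of the death-inducing complex, had log2 differences of 1.00 and 0.52, both past the threshold. MLKL, the effector of necroptosis, was 3.77-fold lower, at 2.20 ± 0.087 against 8.31 ± 0.54 FPKM. RIPK3, the kinase that activates MLKL, had 268 reads under the overexpression label and 0 under the control label, but stayed below the filter. CFLAR, an inhibitor of CASP8 activation, was 2.55-fold higher, and CASP10, a caspase recruited like CASP8, was lower by voom (0.661 against 0.969 FPKM, adjusted p = 0.0338).

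The ubiquitin regulators were 6 higher and 3 lower of 12 tested, with a median of 0.15. Beside this and the counts below stand 37.5% higher and 39.3% lower of all tested genes. TNFAIP3, or A20, an NF-kB target that limits TNF signalling, measured 1.58, 1.33 and 1.62 FPKM against 9.58, 12.8 and 9.36 FPKM. It was 7.02-fold lower (log2 difference -2.20, SE 0.13, limma adjusted p = 6.42e-06), and its partner TNIP1 was 1.68-fold higher. OTULIN, which removes linear ubiquitin chains, was 3.31-fold and SHARPIN, a subunit of the ligase that makes them, 1.60-fold lower. The other subunits of that ligase were higher, RNF31 1.30-fold (limma adjusted p = 7.14e-03) and RBCK1 1.51-fold (limma adjusted p = 1.73e-03). Kinases and subunits of the NF-kB pathway were 6 higher, 6 lower and 5 not past the threshold of 17 (median 0.07), with RELB 1.82-fold and NFKBIE 1.92-fold higher and BCL3 3.30-fold and IKBKB 2.05-fold lower. In the JNK and p38 arm 1 was higher and 5 were lower of 9 (median -0.28). One of the lower genes, MAP2K6, passed the filter through the Con-labelled libraries alone, which fixes its direction. MAP2K6, a kinase that activates p38, was 35.9-fold lower at 0.088 ± 0.013 against 3.14 ± 0.74 FPKM, while MAP2K3, which also activates p38, was 2.26-fold higher.

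**Figure D4:**
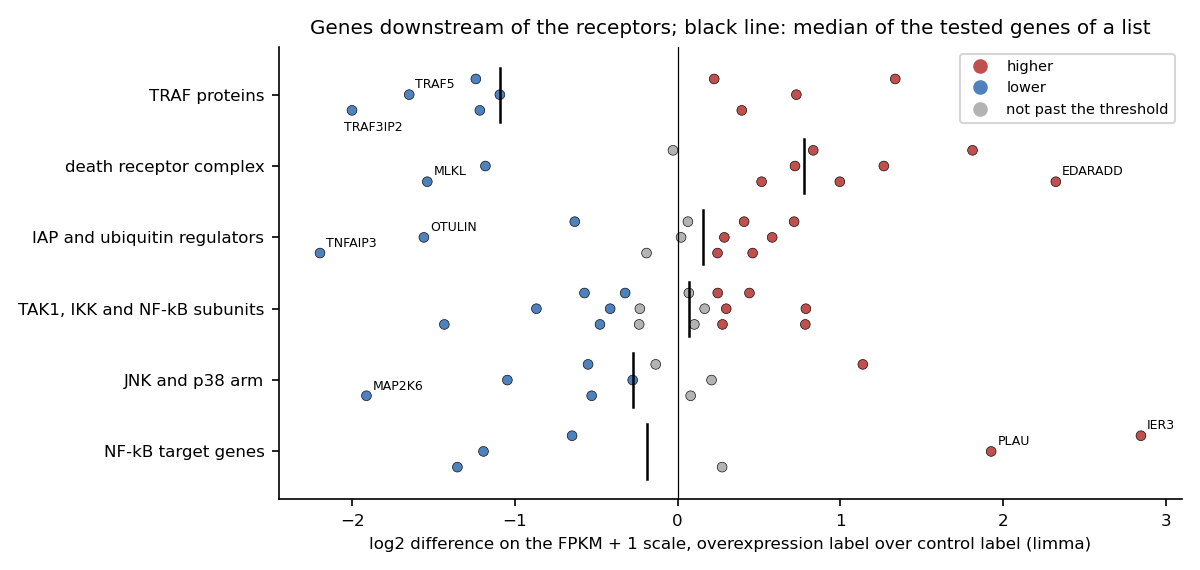
Log2 difference on the FPKM + 1 scale (limma) of tested genes in 6 lists of genes downstream of the receptors; points are genes, coloured by call, and black lines are list medians, which run from -1.09 (TRAF proteins) to 0.78 (death receptor complex). Each list holds both red (higher) and blue (lower) genes.

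Of 14 NF-kB target genes, 6 were tested, 2 higher and 3 lower (median -0.19), beside 37.5% higher and 39.3% lower of all tested genes. IER3 was 7.28-fold higher, at 276 ± 3.4 against 37.9 ± 7.4 FPKM, and PLAU 5.82-fold higher, whereas TNFAIP2 was 2.63-fold and CXCL2 6.38-fold lower. CXCL2 passed the filter through the Con-labelled libraries alone, which fixes its direction. IL6 had 0 reads against 60, and CXCL1 27 reads against 0. Of the proteases that shed or process ligands, ADAM17, the TNF-converting enzyme, was 1.39-fold lower (limma adjusted p = 1.55e-03), and ADAM10 and FURIN did not pass. Among superfamily receptors named outside the rule, NGFR, the neurotrophin receptor, measured 155 ± 3.2 against 0.492 ± 0.30 FPKM, above every member of the rule in the OE-labelled libraries. RELT measured 3.17, 3.31 and 3.29 FPKM against 5.61, 6.65 and 5.80 FPKM, 1.85-fold lower (limma adjusted p = 1.16e-04).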

How the data were processed

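Per the file headers and the table's name, the authors deposited FPKM per gene and library for 6 libraries, with gene length. RNA was made into libraries with a SMARTer mRNA kit, per the labels' protocols. No aligner or counter is stated in the sources used here, and the build in the submitters' processing notes, mm10, is a mouse build, while all 58735 identifiers are human. FPKM times gene length, divided by its smallest value above 0, gave reads that were whole within 0.001 for 100% of values.

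The main test was limma 3.58.1 (R 4.3.3) (two-sided, variances moderated along a trend with the mean) on log2(FPKM + 1), for the 13972 genes averaging 1 FPKM or more, with Benjamini-Hochberg adjustment over all of them and a threshold of 0.05. The log2 scale understates changes of low genes. Folds are ratios of mean FPKM. Against 0 reads they take 3 reads in the whole group as floor and are lower bounds. The 95% counting intervals are exact and cover counting error only. As an alternative, voom was fitted to genes with at least 10 reads in at least 3 libraries. A gene that reached this in a single group only had its direction fixed by that. Only the limma and voom fits were tried on simulated data. There few genes differed and both groups had equal spread, unlike in these data.

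Members and lists were chosen with earlier results of these data known. The text could name DDX39B, every member, EDA, NGFR and RELT, and up to 4 called genes per list. FADD, CASP8, CASP10, CFLAR, RIPK3, RNF31, RBCK1, IL6, CXCL1, ADAM10, FURIN, overlapping genes and single cell type markers were named after their values were seen. DIABLO has 2 identifiers, of which the longer gene was used. Alternatives changed pseudocount, filter, scaling, variance model, genes tested, replicate block and libraries. The values of 1 gene of the signalling lists are not reported here, though list counts and medians include it.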

Additional observations from a re-analysis of the deposited data

How the results depend on the processing

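Counts of calls depended mainly on the filter. With a mean of at least 5 FPKM, all tested genes called numbered 6218 of 7796, and 3 superfamily members and 15 signalling genes were higher, as fewer genes were tested. With no filter 8 members were lower, and with voom on the reads 20 of 29 members were higher. Leaving out each library in turn gave 12 to 15 higher and 5 lower members. Over all settings 346 values of single members kept their direction and side of the threshold, 12 came to pass it, 10 (all TNFRSF11B) lost it and 0 reversed. Replicate numbers did not pair the libraries (r of same-numbered deviations -0.0059, -0.022 and 0.0075, and libraries did not all correlate best with their own number). With a replicate block 12 members were higher and 5 lower, and the adjusted p of TNFRSF11B was 0.0625. The median log2 fold change of all genes ranged from -0.10 to 0.07, except with voom, where it was 0.16. Genes under about 10 reads per library allow no statement beyond their interval, and 3 reads equal 0.166 to 0.184 FPKM per kilobase of gene.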

Other observations

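Spread among libraries differed between the groups, over all genes as well as in the superfamily. Of the 12 members above 1 FPKM in both groups, 11 had the larger coefficient of variation in the Con-labelled libraries, with a median of 13.4% against 3.86%. Over all 11302 genes above 1 FPKM in both groups, 79.1% had the larger value there, with medians of 10.3% and 4.56%. The exception was TNFRSF11B, at 6.12% against 18.3%. The third Con-labelled library was the highest of its group for 6 of the 12, the first for 4 and the second for 2.

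TNFRSF6B, which encodes the soluble decoy receptor 3, is listed at 0 in all 6 libraries, while the read-through gene RTEL1-TNFRSF6B, which covers it on the same strand, measured 1.19 ± 0.028 FPKM in the OE-labelled and 0.491 ± 0.21 FPKM in the Con-labelled libraries (SD, n = 3 each). How reads of the shared exons were assigned is not known, so the level of the decoy receptor cannot be read from either value. CD27-AS1, opposite CD27, measured 4.19 ± 0.29 against 1.13 ± 0.96 FPKM (SD, n = 3 each), above CD27 itself in both groups.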
